A study of Rattus norvegicus with 32 samples.

Results

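The 10 genes described here, of 34912 gene names on a rat array, were chosen by the measured difference in transcript level between the hearts of septic rats with and without the β-blocker landiolol. They were Tgm1, Ippk, Ttc27, Wnt9b, Tmem119, Cntnap1, Asb18, Actr3b, Epn3 and Phldb2, and every non-control probe that carried one of these names in either annotation version of the array files was taken, which gave 14 of 45598 probes. Because the contrast of the CLP plus landiolol group with the CLP group had picked the genes, its values are given below as a description with no test. No cut-off came with the choice, and the genes were not the 10 with the largest changes: Phldb2, with the smallest difference among them, stood at place 810 by size in males and at place 1134 in females.

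The left ventricles came from 32 Wistar rats aged 9 to 12 weeks, with 5 sham, 5 CLP and 6 CLP plus landiolol rats of each sex, and each RNA sample was measured on a 1-colour Agilent array of its own. CLP (cecal ligation and puncture) opens the bowel into the abdominal cavity and causes sepsis. Landiolol, which blocks the β1-adrenergic receptor and is cleared within minutes, was infused in saline at 0.1 mg/kg/min from 1 h after CLP, the groups without it received saline in a like volume (10 ml/kg/h), and all rats had the opioid buprenorphine before surgery and no antibiotics. Hearts were collected at 20 h, after imaging at 18 h and perfusion outside the body, so that every level below is that of a perfused whole ventricle at 1 time point.

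Sepsis raises the sympathetic drive to the heart, and the β1-adrenergic receptor of the cardiomyocyte answers with cyclic AMP and protein kinase A, which phosphorylates channels, contractile proteins and transcription factors such as CREB. Landiolol acts at the first step of this chain. The 10 genes do not form a pathway: they include enzymes (Tgm1, Ippk), a secreted ligand (Wnt9b), membrane proteins (Tmem119, Cntnap1), a substrate receptor of ubiquitin ligases (Asb18) and proteins of the actin cortex and of endocytosis (Actr3b, Phldb2, Epn3), whereas Ttc27 is named for the tetratricopeptide repeats of its protein.

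Promoter windows (250 bases before to 50 after the transcription start, RefSeq, build GRCr8) were at hand for 7 of the 10 genes, in 9 windows, and 4 of them are shown: that of Tgm1, the gene with the largest difference, and the 3 that held any of the motifs searched. Capitals mark the matches.
Tgm1 (chr15:33174218-33174517, minus strand): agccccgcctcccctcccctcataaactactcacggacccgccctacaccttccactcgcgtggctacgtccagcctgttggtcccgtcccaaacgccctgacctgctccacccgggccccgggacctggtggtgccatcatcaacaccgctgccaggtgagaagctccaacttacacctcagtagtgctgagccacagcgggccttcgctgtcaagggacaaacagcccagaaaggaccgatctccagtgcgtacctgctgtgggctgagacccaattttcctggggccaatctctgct
Ippk (chr17:15435951-15436250, minus strand): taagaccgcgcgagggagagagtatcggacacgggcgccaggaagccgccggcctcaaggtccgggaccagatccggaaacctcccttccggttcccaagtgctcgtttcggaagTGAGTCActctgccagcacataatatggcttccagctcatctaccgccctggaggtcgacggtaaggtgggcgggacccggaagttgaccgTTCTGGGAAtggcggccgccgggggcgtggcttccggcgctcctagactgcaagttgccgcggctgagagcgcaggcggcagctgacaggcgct
Asb18 (chr9:98043421-98043720, minus strand): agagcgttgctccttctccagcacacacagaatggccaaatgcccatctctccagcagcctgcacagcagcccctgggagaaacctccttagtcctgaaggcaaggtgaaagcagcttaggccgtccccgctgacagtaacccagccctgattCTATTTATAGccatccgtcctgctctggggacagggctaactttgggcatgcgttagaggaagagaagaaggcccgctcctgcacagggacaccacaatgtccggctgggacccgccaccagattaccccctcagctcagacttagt
Actr3b (chr4:10089313-10089612, minus strand): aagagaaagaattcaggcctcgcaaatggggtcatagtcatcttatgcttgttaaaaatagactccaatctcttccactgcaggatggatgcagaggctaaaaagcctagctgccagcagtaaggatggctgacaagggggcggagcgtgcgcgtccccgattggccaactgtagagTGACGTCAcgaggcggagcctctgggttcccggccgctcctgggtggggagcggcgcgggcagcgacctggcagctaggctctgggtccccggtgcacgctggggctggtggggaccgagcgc
Both strands were searched for exact matches, and each share below is that among all 33469 promoter windows of the same table. The full CREB site TGACGTCA was found in Actr3b alone, 73 bases before the start, and in 1.83% of all windows. Its core TGACG, which lies within the full site, was also found in Actr3b alone, against 21.2% of all windows. Ippk held an AP-1 motif (TGANTCA, 7.33% of all windows) 135 bases before the start and a STAT motif (TTCNNNGAA, 8.87%) 44 bases before it. Asb18 held a MEF2 motif (CTA and TAG with 4 bases of any kind between them, 3.84%) 97 bases before the start. The E-box CACGTG (6.42%) and the glucocorticoid receptor motif (GNACA and TGTNC with 3 bases of any kind between them, 0.439%) were in none of the 9 windows, and the windows of Tgm1, Ttc27, Wnt9b and Phldb2 held no match to any motif. A match describes the letters of the window and is not a bound site.

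All levels are log2 intensities of a probe after quantile normalisation of the 16 arrays of a sex. They can be set side by side between arrays of one sex but not between probes. The levels of each sex were normalised apart, from arrays on different slides. Only probes with a signal well above background on 80% or more of the arrays in any one group of the sex were tested, which held for the main probe of 10 genes in males and of 9 in females, where Wnt9b was too dim. The main probe of a gene was its brightest, and rn4 positions are those in the array files, which name the transcript of a probe but not its exon. Over all probes tested, the median difference was between -0.01 and 0.03 in each comparison. Median processed signals of the arrays ranged from 49.2 to 158, no spot was saturated, and the Y-linked gene Kdm5d was well above background on 16 of 16 male and 0 of 16 female arrays. Xist, the RNA of the inactive X, was well above background on 0 of 16 arrays of either sex, so its probe does not check the female label. The number of arrays limits the precision, and a test of CLP against sham or of CLP plus landiolol against sham shares its arrays with the choice of the genes, so it is not independent of it.

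After CLP, 5 of the 10 genes passed an FDR of 1% against sham in males (limma) and 4 of the 9 tested in females, where 7.81% and 3.63% of all probes passed. The CLP and sham arrays did not overlap for 5 genes in each sex, as for 12.3% of all probes in males and 8.32% in females. Tgm1, Ttc27 and Ippk were up-regulated in both sexes, Wnt9b, whose probe was tested only because the CLP arrays were bright, was up-regulated in males and Phldb2 was down-regulated in both sexes. The other genes did not pass in either sex. Cntnap1 differed from sham by -0.11 in males and 0.24 in females, and Epn3 by -0.58 and 0.03, so for these 2 genes the word reversed was not borne out by the CLP values. After landiolol, 1 gene passed the same FDR against sham in males (Cntnap1) and 2 passed in females (Cntnap1 and Tgm1), where 4.15% and 5.25% of all probes passed. Between the CLP plus landiolol and CLP arrays, the contrast that chose the genes, 6 genes were lower and 4 higher with landiolol in males and 5 were lower and 4 higher in females, by a median size of 1.83 (1.77 with Wnt9b at the bound given below) and 1.37, against 0.20 and 0.17 over all probes. These groups did not overlap for 9 genes in males and 7 in females, beside 2.27% and 1.15% of all probes.

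**Figure D1:**
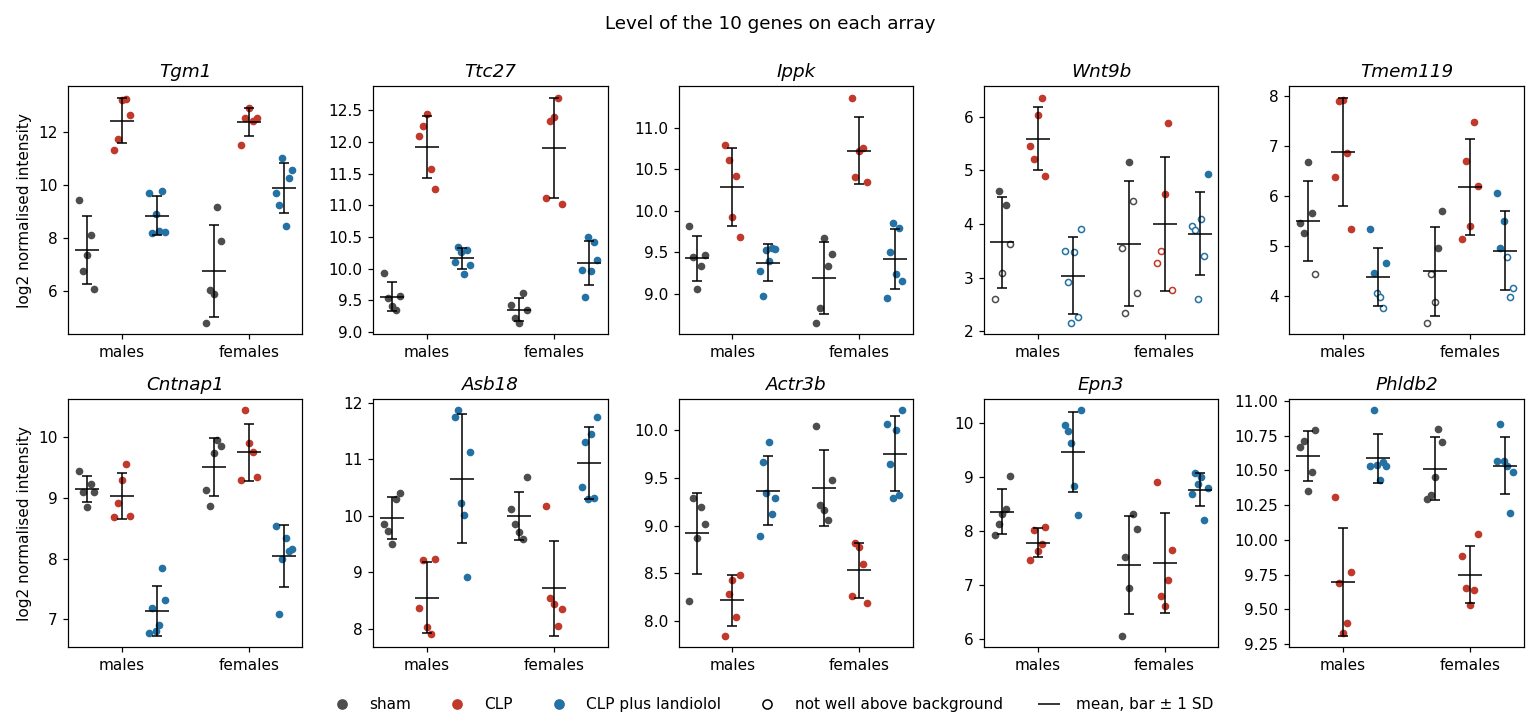
Level of the main probe of each of the 10 genes on the 32 arrays (log2 normalised intensity, vertical axes that differ between panels), by group and sex. Points are arrays, open where the probe was not well above background, with the mean and 1 SD. The 6 genes from Tgm1 to Cntnap1 were lower with landiolol than without and the 4 from Asb18 to Phldb2 were higher, except that the female values of Wnt9b lay among the dim ones.

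Tgm1 encodes transglutaminase 1, an enzyme of the cornified layer of the skin that cross-links proteins. Its probe (rn4, chr15:33846599-33846658, minus strand) was well above background on all 32 arrays. In males, the sham levels were 9.41, 6.75, 7.36, 8.12 and 6.06, the CLP levels were 11.32, 11.75, 13.20, 13.24 and 12.63, and the CLP plus landiolol levels ran from 8.18 through a median of 8.58 to 9.76. Every CLP array lay above every array of the other groups, whereas the sham and CLP plus landiolol arrays overlapped. CLP minus sham was 4.89 ± 0.57 (SE; 29.7-fold, limma adjusted p = 5.28e-05), CLP plus landiolol minus CLP was -3.60, the largest fall among the 25866 probes tested in males, and CLP plus landiolol minus sham was 1.29 (adjusted p = 0.153, 95% interval 0.14 to 2.45).

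Female hearts gave sham levels of Tgm1 of 4.78, 6.02, 5.88, 9.16 and 7.89, CLP levels of 11.49, 12.53, 12.91, 12.43 and 12.51, and CLP plus landiolol levels from 8.45 through 9.98 to 11.03. The 5 CLP arrays were again above all others, and the sham arrays spread widely. CLP hearts differed from sham by 5.62 ± 0.67 (49.3-fold, limma adjusted p = 0.000146) and CLP plus landiolol minus CLP was -2.504. Treated hearts remained above sham by 3.12 ± 0.64 (8.70-fold, adjusted p = 0.00501), although 1 sham array lay within their range, and within the first and the second female slide this difference was 4.15 and 1.81. That call was lost without sham replicate 1, 2 or 3 or without CLP plus landiolol replicate 3, 5 or 6 (adjusted p = 0.0125 to 0.0155). It was also lost with no filter on dim probes (limma adjusted p = 0.0127) and in a fit of the 2 groups alone (adjusted p = 0.0143). With a term for slide row the difference was 2.96 and did not pass (adjusted p = 0.424): all 5 female sham arrays lay in row 1 and all 6 female CLP plus landiolol arrays in row 2, so row was separated from treatment only through the CLP arrays, 3 in row 1 and 2 in row 2.

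Of the 6 other transglutaminase genes on the array, 5 were tested in males and 4 in females, and 0 passed in either sex for CLP against sham, where their differences ran from -0.30 to 0.50 and from -0.68 to 0.05 (limma, 0 and 2 at an unadjusted p under 0.05). Tgm2, the tissue transglutaminase, differed by 0.32 (adjusted p = 0.235) and 0.04 (adjusted p = 0.929). Epithelium and mesothelium markers were near background: 1 of 7 (Krt14) could be tested, 0 passed (limma, 0 at an unadjusted p under 0.05), and their mean level ran from 2.74 to 3.24 on male sham, 2.86 to 3.48 on male CLP and 2.76 to 3.22 on male CLP plus landiolol arrays. Fewer cells of a type and less RNA per cell cannot be told apart in whole tissue.

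Ippk encodes the kinase that adds the last phosphate in the synthesis of inositol hexakisphosphate. Its main probe (rn4, chr17:21146414-21146473, minus strand) read 9.82, 9.44, 9.06, 9.34 and 9.47 on the male sham arrays, 10.79, 10.61, 9.92, 10.42 and 9.68 on the male CLP arrays, and 8.97 to 9.55 (median 9.46) with landiolol. The CLP arrays lay above all treated ones, and 1 of them was below the highest sham array. CLP minus sham was 0.86 ± 0.20 (1.81-fold, limma adjusted p = 0.00917), CLP plus landiolol minus CLP was -0.91, and CLP plus landiolol minus sham was -0.05 (95% interval -0.46 to 0.36). This call against sham stood close to the threshold: leaving out any of 12 arrays ended it (adjusted p up to 0.0272), and it was kept only without sham replicate 1, CLP replicate 3 or 5 or CLP plus landiolol replicate 2. It was also lost with slide or slide row as a term (0.83 and 0.86, adjusted p = 0.0140 and 0.0141), with no filter on dim probes (adjusted p = 0.0173) and in a fit of the 2 groups alone (adjusted p = 0.0302).

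In female hearts, Ippk read 8.65, 8.83, 9.67, 9.33 and 9.48 after sham surgery, 11.36, 10.41, 10.72, 10.76 and 10.35 after CLP, and 8.95 to 9.85 (median 9.37) with landiolol, so the CLP arrays were above all others. CLP minus sham amounted to 1.53 ± 0.24 (2.89-fold, limma adjusted p = 0.00107) and CLP plus landiolol minus CLP was -1.31, which left 0.22 against sham (95% interval -0.27 to 0.72). A second probe (rn4, chr17:21147481-21147540) went the same way, with 0.84 (adjusted p = 0.00316) in males and 1.59 (adjusted p = 0.000463) in females for CLP minus sham, and its levels had r = 0.907 with the main probe over the 32 arrays.

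Among the 9 other inositol phosphate kinases tested, 0 rose and 1 fell after CLP in males and 0 passed in females (2 at an unadjusted p under 0.05, limma). The one that fell was Itpkb, an inositol trisphosphate 3-kinase, by 1.23 on the log2 scale (SE 0.17, adjusted p = 0.000198), and it remained below sham after landiolol by -0.90 (adjusted p = 0.00239). Ppip5k1, which makes inositol pyrophosphates, was above sham with landiolol by 1.02 (adjusted p = 0.00226) in males and 1.96 (adjusted p = 0.000894) in females, with 0.36 (adjusted p = 0.228) and 0.78 (adjusted p = 0.163) after CLP alone. The female sham and treated arrays lay in different slide rows, as given for Tgm1. This female call was not checked with slide row as a term.

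Ttc27 was measured by 1 probe (rn4, chr6:20489854-20489913, minus strand), well above background on all 32 arrays. Male sham hearts gave 9.93, 9.53, 9.41, 9.35 and 9.57, male CLP hearts gave 12.09, 12.25, 12.44, 11.57 and 11.26, and male CLP plus landiolol hearts gave 9.92 to 10.34 (median 10.18). Female values were 9.43, 9.22, 9.14, 9.61 and 9.34 after sham surgery, 11.11, 12.34, 12.40, 12.70 and 11.02 after CLP, and 9.55 to 10.501 (median 10.06) with landiolol. In both sexes the CLP arrays lay above all others, and the treated arrays overlapped the sham arrays only at the sham group's upper end.

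CLP minus sham for Ttc27 was 2.36 ± 0.20 (5.14-fold, limma adjusted p = 3.21e-06) in males and 2.56 ± 0.30 (5.91-fold, adjusted p = 0.000116) in females, and CLP plus landiolol minus CLP was -1.76 and -1.82. Treated hearts stood above sham by 0.60 (adjusted p = 0.0543, 95% interval 0.20 to 1.0) and 0.74 (adjusted p = 0.102, 95% interval 0.14 to 1.35), which did not pass.

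Wnt9b is a secreted Wnt ligand that acts on Frizzled receptors of neighbouring cells. Its brighter probe (rn4, chr10:92880271-92880330, minus strand) was well above background on 11 of 32 arrays. Male sham levels were 2.59, 4.62, 3.09, 4.36 and 3.62 (2 of 5 arrays well above background), male CLP levels were 5.45, 5.22, 6.04, 6.36 and 4.90 (5 of 5), and male CLP plus landiolol levels were 2.15 to 3.91 (median 3.20, 0 of 6). The male CLP arrays lay above all others. The probe passed the filter only through the CLP group, and 3 of the 5 sham values lie in the background. On these values CLP minus sham was 1.94 ± 0.43 (limma adjusted p = 0.0057). With each treated array set no lower than its dimmest probe well above background, the CLP group was 3.42-fold higher than the treated group. This approximate bound was used because the measured means (5.59 and 3.04) include a group without signal. It is not a strict limit: its mean was 3.82, and Tmem119 at 4.05 on a treated male array was not well above background. With normexp correction and in the log2 table of the authors, CLP plus landiolol minus CLP was -0.61 and -0.66, both smaller in size than this bound, which holds for the main processing only.

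The male call for Wnt9b against sham was lost without sham replicate 1, 3 or 5 or CLP replicate 3 or 4 (adjusted p = 0.0141 to 0.0190), with no filter on dim probes (adjusted p = 0.0125) and in a fit of the 2 groups alone (adjusted p = 0.0116), and in the log2 table of the authors the difference was 0.65 (adjusted p = 0.0368). In females the probe was well above background on 1 of 5 sham, 2 of 5 CLP and 1 of 6 CLP plus landiolol arrays, with levels of 3.56, 2.34, 5.15, 4.42 and 2.71, of 3.28, 3.50, 4.56, 5.89 and 2.76, and of 2.60 to 4.93 (median 3.93). These groups overlapped throughout, and a difference was not detectable at this signal. The second Wnt9b probe (rn4, chr10:92882351-92882410) was well above background on 0 of 32 arrays.

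Of 18 other Wnt ligands on the array, 9 were tested in each sex. In males 1 rose and 2 fell after CLP, and in females 0 passed the FDR (5 at an unadjusted p under 0.05, limma). Wnt2b was well above background on 0 of 5 male sham, 5 of 5 CLP and 6 of 6 CLP plus landiolol arrays. Against the same kind of approximate bound for sham, it was 4.41-fold higher after CLP (limma adjusted p = 4.73e-05). With landiolol it was 6.41-fold higher than that bound (limma adjusted p = 6.68e-06). In males Wnt2b passed the filter only through the CLP and CLP plus landiolol groups, where it was bright. It was not among the relatives called in the log2 table of the authors. Its difference between CLP plus landiolol and CLP was 0.54 (adjusted p = 0.380), and in females it differed from sham by 1.77 after CLP (adjusted p = 0.0447). Wnt9a, the other Wnt9 ligand, fell by 1.04 (adjusted p = 0.00575) and Wnt11, a ligand of the β-catenin-independent branch, fell by 0.92 (adjusted p = 0.00455). Wnt5a, another ligand of that branch, passed only in females for CLP plus landiolol against sham, with -1.52 (adjusted p = 0.00168). Those female groups lay in different slide rows, and the call was not checked with slide row as a term. Among 10 genes that β-catenin is known to induce, 5 were tested in males and 4 in females, and 0 passed in any comparison (limma, at most 2 of a sex at an unadjusted p under 0.05). Axin2, a feedback inhibitor induced by β-catenin in most tissues, differed by -0.48 (adjusted p = 0.341) after CLP in males.

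Tmem119 is a membrane protein of bone-forming cells and of microglia, the macrophages of the brain. Its probe (rn4, chr12:43869614-43869673, plus strand) was dim and was well above background on 22 of 32 arrays. In males it read 5.45, 5.26, 6.67, 5.65 and 4.44 in the sham group, 6.38, 7.89, 7.92, 6.85 and 5.34 in the CLP group and 3.76 to 5.33 (median 4.25) with landiolol, where 3 of 6 arrays were well above background. The treated arrays lay below every CLP array by a small gap, and both overlapped sham. The difference after CLP was 1.38 (adjusted p = 0.0655), CLP plus landiolol minus CLP was -2.504 and CLP plus landiolol minus sham was -1.12 (adjusted p = 0.145). With normexp background correction, the landiolol difference was -1.13.

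Female levels of Tmem119 were 3.45, 4.43, 3.87, 4.96 and 5.70 after sham surgery, 5.13, 6.70, 5.39, 7.47 and 6.19 after CLP and 3.97 to 6.05 (median 4.87) with landiolol, and each pair of groups overlapped. The probe was well above background on 2 of 5 sham, 5 of 5 CLP and 3 of 6 treated female arrays. It passed the filter in females only through the CLP group, so the female differences include values in the background. CLP minus sham was 1.69 (adjusted p = 0.0474, above the threshold of 1%), with 2.74 and 0.87 within the 2 female slides, CLP plus landiolol minus CLP was -1.27 and CLP plus landiolol minus sham was 0.42 (adjusted p = 0.642). Of the macrophage and monocyte markers, 2 of 6 rose after CLP in each sex (Cd68 and Adgre1). With landiolol against CLP, 1 of 6 rose in males, Aif1 by 0.72 (adjusted p = 0.0205), and 0 passed in females (limma, 0 at an unadjusted p under 0.05). Their part in the Tmem119 values was not tested. Their mean level was 9.59 to 9.97 on male sham, 10.27 to 10.73 on male CLP and 10.58 to 10.86 on male CLP plus landiolol arrays, and 9.49 to 9.73, 10.10 to 10.86 and 10.49 to 10.68 in females. Osteoblast markers had 2 of 4 testable, with mean levels of 4.15 to 5.24, 4.496 to 5.06 and 4.15 to 4.81 in the 3 male groups, and 1 of them (Alpl) passed only for CLP plus landiolol against sham in males, with -1.01 (adjusted p = 0.00471).

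Cntnap1 encodes Caspr, which joins the axon to the myelin loops beside the node of Ranvier. Its probe (rn4, chr10:90210595-90210654, plus strand) read 9.44, 9.10, 8.85, 9.23 and 9.10 on male sham arrays, 8.68, 8.92, 9.30, 9.56 and 8.70 on male CLP arrays and 6.77 to 7.84 (median 7.04) on male CLP plus landiolol arrays. Female values were 9.13, 8.86, 9.74, 9.96 and 9.85, then 9.29, 10.44, 9.90, 9.76 and 9.35, and with landiolol 7.09 to 8.54 (median 8.15). In both sexes the sham and CLP arrays overlapped, and every treated array lay below all of them.

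For Cntnap1, CLP minus sham was -0.11 (adjusted p = 0.802, 95% interval -0.57 to 0.35) in males and 0.24 (adjusted p = 0.688, 95% interval -0.38 to 0.86) in females, and CLP plus landiolol minus CLP was -1.90 and -1.71. Against sham, the treated hearts were lower by -2.01 ± 0.21 (4.02-fold, limma adjusted p = 2.38e-05) and -1.47 ± 0.28 (2.77-fold, adjusted p = 0.0028). It was the only gene of the 10 whose treated arrays did not overlap the sham arrays, in each sex, as for 7.79% of all probes in males and 9.74% in females. The female call was kept without each array in turn (adjusted p up to 0.00993) but not with a term for slide row (-1.15, adjusted p = 0.495), which was separated from treatment only through the CLP arrays, whereas the male call was kept under every alternative tried.

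Among 9 other axonal junction proteins, 4 were tested in males and 5 in females. Epb41l3, a cytoskeletal linker, fell after CLP in males by 0.85 (adjusted p = 0.00854). Cntnap2, the Caspr relative of the juxtaparanode, fell in females by 2.23 (limma adjusted p = 0.00506), with 1 of 5 CLP arrays well above background. In females it passed the filter only through the sham group, where it was bright, so this fall includes values in the background. At an approximate bound, sham was 3.70-fold higher than the treated group (limma adjusted p = 0.00101), in which 0 of 6 arrays were well above background. These sham and treated arrays lay in different slide rows, and the call was not checked with slide row as a term.

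Asb18 belongs to the ankyrin repeat and SOCS box family, whose members bring substrates to cullin 5 ubiquitin ligases. Its probe (rn4, chr9:89056522-89056581, minus strand) read 9.86, 9.73, 9.51, 10.29 and 10.40 in male sham hearts, 8.37, 9.21, 8.04, 7.91 and 9.23 in male CLP hearts and 8.92 to 11.86 (median 10.68) in male CLP plus landiolol hearts. The CLP arrays lay below all sham arrays, and 1 treated array (replicate 5) lay among them. The CLP difference from sham was -1.41 (adjusted p = 0.0564), CLP plus landiolol minus CLP was 2.10, and CLP plus landiolol minus sham was 0.69 (adjusted p = 0.380, 95% interval -0.28 to 1.66).

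In female hearts Asb18 read 10.12, 9.86, 9.72, 9.59 and 10.68 after sham surgery, 10.18, 8.54, 8.45, 8.06 and 8.36 after CLP and 10.29 to 11.74 (median 10.91) with landiolol. Replicate 1 of the CLP group stood at the sham level, and the other CLP arrays were below all sham arrays. CLP minus sham was -1.28 (adjusted p = 0.048) and passed the FDR without that array (-1.64, adjusted p = 0.00463), CLP plus landiolol minus CLP was 2.21, and CLP plus landiolol minus sham was 0.94 (adjusted p = 0.111, 95% interval 0.16 to 1.72). Of the 15 other family members tested, 0 passed for CLP against sham in either sex (-1.40 to 0.98 in males, -1.06 to 0.30 in females), with 6 and 3 at an unadjusted p under 0.05 (limma). With landiolol against CLP, where 1.56% of all probes passed an FDR of 5% in males and 0.0945% in females, 1 of 15 rose in males, Asb15 with 1.14 (adjusted p = 0.0380), and 0 in females, where it differed by 0.59 (adjusted p = 0.491).

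Actr3b encodes a form of Arp3, a subunit of the Arp2/3 complex that starts branched actin filaments. Its probe (rn4, chr4:4654641-4654700, minus strand) read 8.21, 9.29, 8.87, 9.20 and 9.02 on male sham, 7.84, 8.28, 8.43, 8.04 and 8.48 on male CLP and 8.89 to 9.88 (median 9.31) on male CLP plus landiolol arrays. Female values were 10.05, 9.22, 9.16, 9.06 and 9.48, then 8.26, 8.82, 8.77, 8.60 and 8.19, and with landiolol 9.29 to 10.21 (median 9.83). The CLP arrays lay below all treated arrays in both sexes and below all sham arrays in females, whereas in males sham replicate 1 lay among them.

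CLP minus sham for Actr3b was -0.70 (adjusted p = 0.0397) in males and -0.87 (adjusted p = 0.0245) in females, neither of which passed an FDR of 1%, and the male difference passed without sham replicate 1 (-0.88, adjusted p = 0.00724) and with array weights (-0.74, adjusted p = 0.00741). CLP plus landiolol minus CLP was 1.15 and 1.23, and CLP plus landiolol minus sham was 0.45 (adjusted p = 0.203) and 0.36 (adjusted p = 0.314). All 9 other subunit genes of the complex were tested in both sexes and 0 passed in any comparison, with CLP minus sham from -0.28 to 0.43 in males and from -0.21 to 0.52 in females (3 and 1 at an unadjusted p under 0.05, limma).

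Phldb2 encodes LL5β, which binds phosphoinositides at the cell cortex and anchors the plus ends of microtubules there. The array files named its probes in only 1 of the 2 annotation versions. Its main probe (rn4, chr11:56565345-56565404, plus strand) read 10.67, 10.71, 10.35, 10.49 and 10.79 in male sham hearts, 10.31, 9.69, 9.33, 9.40 and 9.77 in male CLP hearts and 10.43 to 10.93 (median 10.54) with landiolol. Female hearts gave 10.29, 10.32, 10.45, 10.80 and 10.70, then 9.88, 9.65, 9.53, 9.64 and 10.04, and 10.19 to 10.83 (median 10.55) with landiolol. The CLP arrays lay below all arrays of the other groups in both sexes.

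Phldb2 fell after CLP by 0.90 (SE 0.17, limma adjusted p = 0.00173) in males and by 0.76 (SE 0.15, adjusted p = 0.00431) in females on the log2 scale, and CLP plus landiolol minus CLP was 0.89 and 0.78. Treated and sham hearts differed by -0.02 (95% interval -0.35 to 0.32) and 0.02 (95% interval -0.28 to 0.32), the narrowest intervals of the genes tested. The female call against sham was lost without sham replicate 4 or 5 or CLP replicate 2, 3 or 4 (adjusted p = 0.0105 to 0.0147). It was also lost with slide row as a term (-0.83, limma adjusted p = 0.0144). In a fit of the 2 groups alone, both the female call (adjusted p = 0.0186) and the male call (adjusted p = 0.0104) were lost. A second probe (rn4, chr11:56564650-56564709), with r = 0.890 to the main one over 32 arrays, differed by -1.001 (adjusted p = 0.000948) and -0.84 (adjusted p = 0.00694) between CLP and sham.

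Phldb1, its paralogue LL5α, went the same way as Phldb2: it fell after CLP by 1.27 (adjusted p = 2.69e-05) in males and by 1.04 (adjusted p = 0.00133) in females, and it rose with landiolol against CLP by 0.74 (adjusted p = 0.0103) in males, with 0.48 (adjusted p = 0.333) in females. Of the 8 proteins of the LL5 cortical platform tested in males, 2 rose after CLP and 1 fell, and of the 9 tested in females 1 fell. Those that rose in males were Kank1 by 1.08 (adjusted p = 0.0039), which links the platform to integrin adhesions, and Ppfibp1, a liprin, by 0.63 (adjusted p = 0.00409).

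Epn3 encodes an epsin, an adaptor of clathrin-mediated endocytosis. Its main probe (rn4, chr10:83129024-83129083, minus strand) read 7.93, 8.13, 8.31, 8.41 and 9.02 on male sham arrays, 7.46, 8.02, 7.62, 7.75 and 8.07 on male CLP arrays and 8.30 to 10.24 (median 9.75) with landiolol. In females it read 6.05, 7.52, 6.94, 8.31 and 8.04, then 8.91, 6.79, 6.61, 7.08 and 7.64, and 8.20 to 9.07 (median 8.83) with landiolol. The treated male arrays lay above all CLP arrays, and all other pairs of groups overlapped in both sexes.

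For Epn3, CLP minus sham was -0.58 (adjusted p = 0.259, 95% interval -1.25 to 0.10) in males and 0.03 (adjusted p = 0.978, 95% interval -0.89 to 0.95) in females, and CLP plus landiolol minus CLP was 1.69 and 1.37. Against sham, treated hearts differed by 1.11 (adjusted p = 0.0302) and 1.40 (adjusted p = 0.0371), which passed in males without CLP plus landiolol replicate 5 (1.35, adjusted p = 0.00364) and with array weights (1.35, adjusted p = 0.00114). A second, dimmer probe (rn4, chr10:83130965-83131024) had a smaller difference of the same sign in males. There, CLP plus landiolol minus CLP was 0.33 (95% interval -0.04 to 0.70), and r between the probes was 0.448 over 32 arrays. This probe was well above background on 26 of 32 arrays and was too dim to test in females. The 5 other epsins and AP180 adaptors tested had 0 calls in any comparison (limma, at most 1 at an unadjusted p under 0.05).

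**Figure D2:**
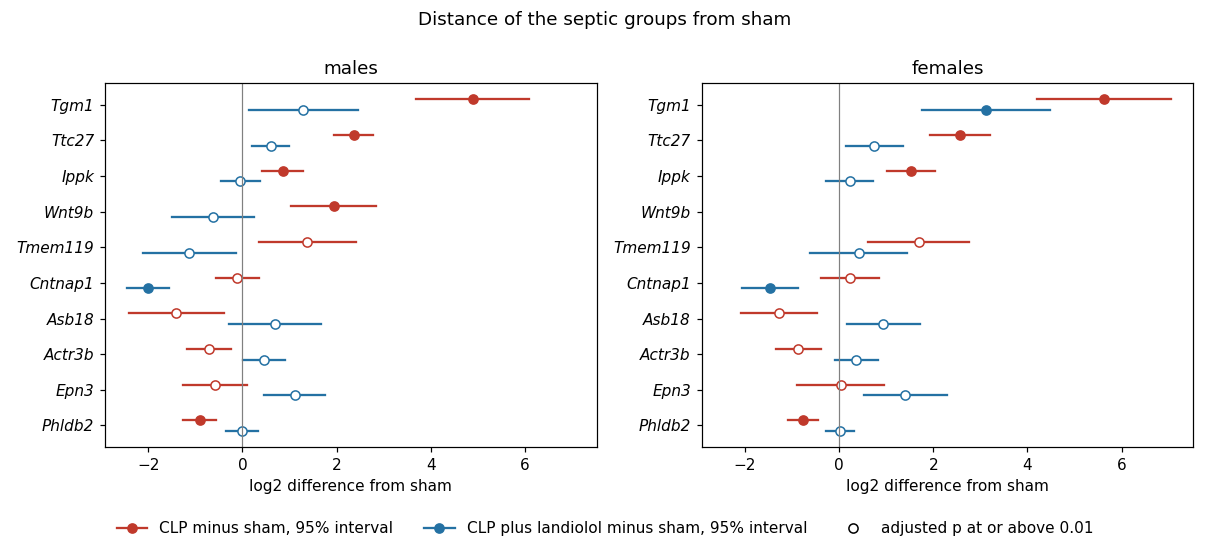
Difference of the CLP group and of the CLP plus landiolol group from sham (log2, points with 95% intervals, limma) for each gene and sex, filled where the adjusted p was under 0.01. Cntnap1 lies at -0.11 and 0.24 after CLP and at -2.01 and -1.47 with landiolol, Phldb2 lies at -0.02 and 0.02 with landiolol, and Tgm1 remains at 3.12 in females. For Wnt9b in males, 0 of 6 arrays with landiolol were well above background, so that point is not a measured difference.

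Seen from sham, the genes fell into different patterns. For the main probes of Ippk and Phldb2 the treated groups differed from sham by 0.22 or less in size in both sexes, and the second Ippk probe differed by -0.33 in males (adjusted p = 0.228) and 0.31 in females (adjusted p = 0.386). Tgm1 and Ttc27 were between sham and CLP, with treated values above the sham mean in both sexes. Asb18, Actr3b and Epn3 had treated means above sham by 0.36 to 1.40, none of which passed the FDR. Tmem119 differed from sham by -1.12 and 0.42 with landiolol, and for Wnt9b no difference from sham is given, since the treated male arrays were not well above background. Cntnap1 was below sham with landiolol and did not pass after CLP. In males, the median size was 1.14 for CLP minus sham over all 10 genes, Wnt9b included. For CLP plus landiolol minus sham it was 0.69, with Wnt9b left out. These male medians cover different genes and cannot be set side by side. In females, the medians over the genes tested were 1.28 and 0.74. Over all probes, they were 0.24 and 0.23 in males and 0.25 and 0.27 in females. The comparisons share their sham arrays.

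**Figure D3:**
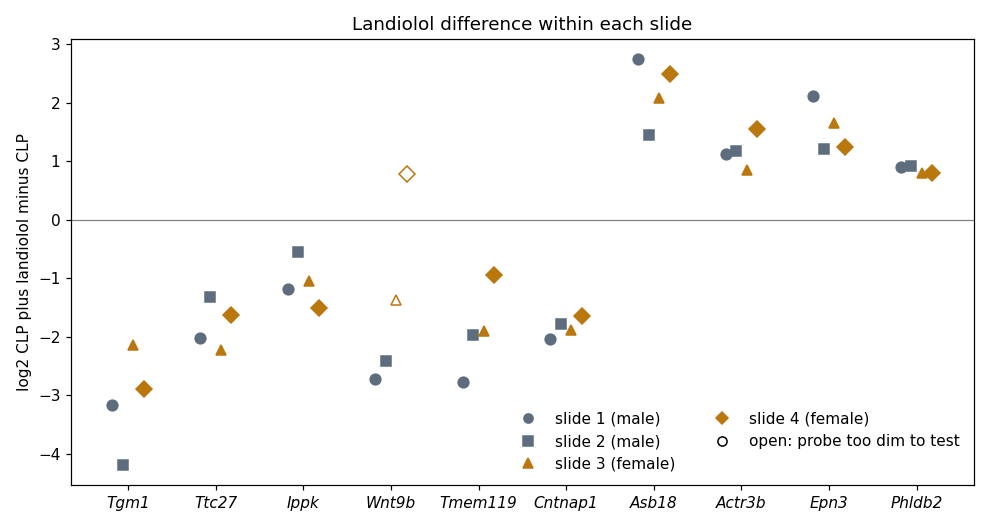
CLP plus landiolol minus CLP (log2 difference of means) within each of the 4 slides, for each gene. Values run from -4.20 (Tgm1, slide 2) to 2.74 (Asb18, slide 1), and those of female Wnt9b, drawn open, lie at -1.37 and 0.77. The male values of Wnt9b set the CLP arrays against treated arrays at background.

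Each slide held a single sex, with 2 or 3 arrays of each group of that sex, so the sexes were compared across slides. For CLP minus sham the called genes kept their direction within each slide. The difference for Tgm1 was 4.01 and 5.76 on the male and 6.29 and 4.71 on the female slides, that for Ttc27 was 2.53, 1.97, 3.22 and 2.09, that for Ippk 0.81, 0.76, 1.31 and 1.74, and that for Phldb2 -0.92, -0.96, -0.84 and -0.74. Wnt9b differed by 1.97 and 1.94 on the male slides. With slide as a term, the male call for Ippk did not pass, as given above. A difference of the CLP change between the sexes passed for 0 of the 9 genes tested: in limma's test of the interaction on the 32 arrays normalised together, 0 of 24769 probes passed an FDR of 5% and 3.5% had an unadjusted p under 0.05. Ippk was the only gene of the 10 in that share, with 0.84 in males and 1.55 in females, a difference of 0.71 (unadjusted p = 0.0360, adjusted p = 0.9999), and its second probe differed by 0.76 (unadjusted p = 0.0111).

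**Figure D4:**
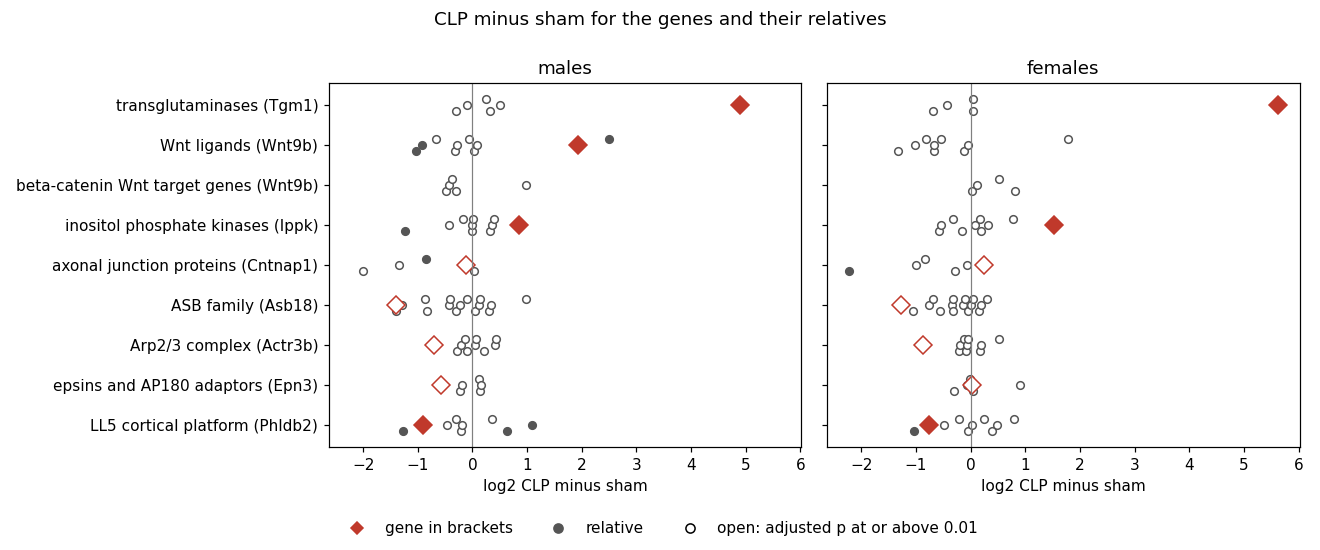
CLP minus sham (log2) for each gene (diamonds) and its relatives or partners (circles), by family and sex, filled where the adjusted p was under 0.01. Tgm1 stands at 4.89 and 5.62, while the other transglutaminases lie between -0.68 and 0.50.

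Over all 93 relatives and partners on the array, 69 were tested in each sex. After CLP, 3 rose and 5 fell in males (11.6% of the 69, beside 7.81% of all probes) and 0 rose and 2 fell in females (2.9% beside 3.63%). With landiolol against CLP, 2 rose in males (2.9% beside 1.56%) and 0 passed in females (limma, 8 at an unadjusted p under 0.05), beside 0.0945%. For CLP plus landiolol against sham, 3 rose and 1 fell in males (5.8% beside 4.15%) and 3 rose and 2 fell in females (7.25% beside 5.25%): besides those given above, these were Ppfibp1 in males (0.75, adjusted p = 0.00154) and Ppfibp1 (0.95, adjusted p = 0.000345) and Kank1 (1.23, adjusted p = 0.00508) in females. The female calls of this comparison were not checked with slide row as a term, and those groups lay in different rows. The median difference of the 69 was -0.11 in males and -0.06 in females after CLP and 0.06 and 0.08 with landiolol against CLP, beside 0.01, -0.01, -0.01 and 0.03 over all probes. The relatives called in males for CLP against sham or for landiolol against CLP depended on single arrays: with Asb15 and Cntnap2 included, 10 genes passed in one sex or the other, and 4 to 6 passed without male sham replicate 2, 4 or 5 or male CLP replicate 3, 4 or 5.

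Levels of the genes also followed each other over the 32 arrays once the mean of each sex was subtracted, and the arrays share the 3 treatments and both sexes, so these correlations describe the same pattern again. Pearson r was highest for Ttc27 with Tgm1 (0.87), Ttc27 with Ippk (0.79) and Asb18 with Epn3 (0.78), and lowest for Ttc27 with Phldb2 and Ippk with Actr3b (both -0.82). Among 12358 named genes, the level of Abr, a regulator of small GTPases, was most like that of Tgm1 (r = 0.94), followed by those of Net1, a guanine nucleotide exchange factor (0.90), and Myot, a Z-disc protein (0.90). Clcn2, a chloride channel, was most like Ttc27 (0.89), with Myot and Zdhhc9 at 0.88, and Tbx20, a cardiac transcription factor, was most like Ippk (0.82), with Rfx2 at 0.81 and Zdhhc9 at 0.78. S1pr2, a receptor for sphingosine 1-phosphate, was most like Cntnap1 (0.88), with Slc6a17 and Ccdc85c at 0.85.

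For the genes that were higher with landiolol than after CLP alone, the most similar were Kctd12 (0.76), Igf1 (0.75) and Pkig (0.74), an inhibitor of protein kinase A, with Asb18. With Actr3b they were Sh2d4a (0.83), Il11ra1 (0.78) and Ptp4a3 (0.78), with Phldb2 Vipr1 (0.84), Snph (0.83) and Efcc1 (0.82), and with Epn3 Phf24 (0.80), Stmn1 (0.75) and Eepd1 (0.74). The dim genes had the weakest partners, with Rabggta (0.75), Faap100 (0.73) and Tekt4 (0.73) for Tmem119 and Slc35f6 (0.70), Tmem208 (0.69) and Tpgs2 (0.69) for Wnt9b.

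Some marker transcripts of other cell types differed between CLP and sham ventricles, and their part in the values above was not tested. Of 5 neutrophil markers, 2 were bright enough to test in each sex, S100a8 and S100a9 in males. Both rose after CLP in males, and 1 of the 2 tested rose in females. S100a8 was well above background on 0 of 5 male sham arrays, so it was tested in males only through the groups where it was bright. The rest of the list was too dim to test, and Mmp8 was well above background on 0 of the sham and CLP arrays. Mean levels of the whole list, dim markers included, were 2.46 to 3.35 on male sham, 3.91 to 4.99 on male CLP and 4.78 to 5.26 on male CLP plus landiolol arrays. Fibroblast markers fell in males for 3 of 5 (Col1a1, Col1a2 and Lum), with mean levels of 12.33 to 13.09, 11.25 to 12.22 and 11.66 to 12.47, and 0 of 5 passed in females (limma, 4 at an unadjusted p under 0.05). Dcn, of the same list, had the opposite sign, with 0.87 (adjusted p = 0.0467) in males and 0.77 (adjusted p = 0.0752) in females. Of the lists, cardiomyocyte markers had 6 of 6 well above background on all arrays, with mean levels of 17.31 to 17.75 in males and 17.43 to 17.83 in females, and 0 passed for CLP against sham (limma, 1 in each sex at an unadjusted p under 0.05). Endothelial, smooth muscle and lymphocyte markers also had 0 calls for CLP against sham in either sex (limma, at most 2 of a list at an unadjusted p under 0.05). Only 2 of 5 lymphocyte markers and 0 of 3 adipocyte markers could be tested.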

How the data were processed

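Per the labels and the file headers, the authors made the intensities with Agilent Feature Extraction 10.5, which subtracted background and detrended each array, and a second deposited file, used here as an alternative, holds the log2 values that the authors had filtered and quantile-normalised. Control spots and spots marked as outliers were left out (213 values missing), log2 was taken of the processed intensity, spots of one probe were averaged, and quantile normalisation was done over the 16 arrays of each sex. The 25866 probes of males and 25395 of females that passed the filter on dim probes were fitted with limma 3.58.1 (lmFit and eBayes, R 4.3.3), with the 3 groups of a sex in one model and Benjamini-Hochberg adjustment, at an FDR of 1% for comparisons with sham and 5% for the others. The study used SAM, which was not run here. The model was tested on simulated data. The 10 genes and all gene lists were chosen with earlier results of these data known. Named are the 10 genes, relatives and markers that passed a test and, for each of the 10, the 3 genes with the highest Pearson r over the 32 arrays after the mean of each sex was subtracted. Tgm2, Axin2, Dcn and Mmp8 fall outside this rule and were named after their values were seen, and 1 of the marker lists is not reported here. For a group in which no array had a signal well above background, an approximate bound was computed from the lowest signal well above background. Values that were not well above background can exceed it. Alternatives were the 75th percentile scaling, normexp correction (offset 50), no filter, the authors' log2 file, the slide or its row as a term, both sexes normalised together, array weights, a trended prior, only the groups compared, and leaving out each array.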

Additional observations from a re-analysis of the deposited data

Results flagged for a closer look

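In 60 sets of values (10 genes in 6 groups), 2 arrays stood apart from the rest of their group by Dixon's ratio, where chance marks about 1 set in 20. Asb18 on the array of female CLP replicate 1 had a level of 10.18, while the nearest other array of the group was at 8.54 and the lowest at 8.06 (ratio 0.775). Phldb2 on the array of male CLP plus landiolol replicate 2 had a level of 10.93, with the nearest array at 10.56 and the lowest at 10.43 (ratio 0.748).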

How the results depend on the processing

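The groups held different rats, so no paired analysis applied. The labels number no replicates, and the numbers given here follow the order of deposit. Outside the settings that leave out an array, 542 values of single genes stayed the same, 14 calls were lost, 2 were gained, 8 signs turned and 4 landiolol differences moved. For comparisons with sham, the same means an unchanged direction and side of the threshold. For the landiolol differences, it means an unchanged direction and a shift under the mean SD of the groups compared. Genes called for CLP vs sham in males went from 5 to 3 with no filter and 2 in a fit of only the 2 groups compared, and ranged from 3 to 5 without each array (3 without male sham replicate 3 or 5 or male CLP replicate 4). In females that count was 4, went to 3 with the slide row and with only the 2 groups, and ranged from 3 to 5 without each array. For CLP plus landiolol vs sham, the count in males went from 1 to 2 with array weights and ranged from 1 to 2 without each array, and in females it went from 2 to 1 with no filter, 0 with the slide row and 1 with only the 2 groups, and ranged from 1 to 2. The median size of the landiolol differences was 1.71, 1.22 with normexp correction and 1.65 to 1.79 without each array. With normexp the male differences of Tmem119, Cntnap1 and Wnt9b were -1.13, -1.46 and -0.61, and that of Wnt9b was -0.66 in the table of the authors. Relatives called went from 10 to 6 with no filter, 19 with array weights and 4 with only the 2 groups, and ranged from 4 to 12 without each array. The sex difference had 0 calls throughout.

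Signs turned only for values near 0 or with a wide interval. Phldb2 against sham with landiolol was 0.12 in males with array weights, and in females -0.0334 with normexp, -0.00944 in the table of the authors, -0.14 with the slide row and -0.0323 with array weights. Without each array it ranged from -0.0842 to 0.0325 in males and from -0.0396 to 0.0911 in females. Ippk ranged from -0.14 to 0.0468 there in males. Epn3 for CLP vs sham in females was -0.10 with the slide as a term and -0.34 with array weights, and ranged from -0.34 to 0.27 without each array. Tmem119 with landiolol vs sham in females was -0.67 with the slide row. The cause of these changes was not tested. Signal limits Wnt9b and Tmem119, which were not well above background on many arrays.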
